A study of Mus musculus with 8 samples.

Results

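The genes described here are 10 genes used to mark macrophages, taken by symbol from the 17127 genes of a testis RNA-seq table: Spi1, Csf1, Csf1r, Adgre1, Cd163, Mrc1, Cd68, Lyz2, Tyrobp and Fcer1g. All 10 were found, each as a single protein-coding row. RNA-seq was carried out on whole testes of adult mice, aged 4 months by the study's methods, in 4 wild-type libraries (wild type 1 to 4) and 3 libraries from Iqch-/- mice (mutants 1, 2 and 4). Mutant 3 was not analysed here, and by the study's methods 1 mutant was left out as an outlier. By the study, Iqch is expressed in germ cells and also in somatic cells of the testis. The mutants were homozygous for small frameshift deletions in Iqch, made by CRISPR-Cas9 in B6CBAF1 zygotes. The study kept 2 lines with such deletions. A figure legend of the study gives the RNA-seq coverage of mutants as that of line Iqchmu7. The labels do not give the line of a library. Values are CPM: each gene has its share of the reads counted over the whole table, scaled to a sum of 1000000 in each library. The comparison asks whether testes of mutants held more RNA of macrophage genes, and whether the 10 genes rose by the same factor.

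Testis macrophages live in the interstitium beside the Leydig cells, which make androgens, and around the seminiferous tubules near the spermatogonia. Macrophages depend on CSF1R, a receptor tyrosine kinase, and on its ligands CSF1 and IL34. The transcription factor PU.1, the product of Spi1, drives the myeloid programme, including Csf1r itself. TYROBP and FCER1G are small adaptor proteins that carry ITAM motifs and pass signals from surface receptors to the kinase SYK.

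The 7 libraries held between 32064384 and 37551057 reads, taken from the smallest step between values, so that 1 read was worth 0.0266 to 0.0312 CPM. Iqch itself had a mean of 208 ± 11.3 CPM (SD, n = 4) across wild types and of 67.3 ± 2.25 CPM (SD, n = 3) across mutants, a log2 fold change of -1.63 ± 0.05 (SE; FDR 1.92e-10, limma). Each mutant library lay below each wild-type library for Iqch, and the study also reports less Iqch RNA in mutants. The groups differed in many genes: 36.3% of the 17126 tested genes were called higher in mutants and 14.2% lower at an FDR of 0.01, and the median gene differed by 0.12 on the log2 scale. With median-of-ratios size factors, 4627 genes were called higher and 4294 lower, in place of 6212 and 2428. Fold changes below come from limma on log2(CPM + 0.1), which understates the change of low genes, and every FDR is that fit's Benjamini-Hochberg value over all tested genes.

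All 10 genes were higher in mutants at an FDR of 0.01, against 36.3% of all tested genes, and in each of the 10 every mutant library lay above every wild-type library, as for 42.8% of all tested genes. In 9 of the 10 the rise was also above 2-fold, which 8.79% of all tested genes passed. The largest rise was that of Lyz2 (5.05-fold) and the smallest that of Mrc1 (1.69-fold). The median log2 fold change of the 10 was 1.57, against 0.12 over all tested genes. The 3 genes Cd163, Tyrobp and Spi1 reached the 2.2 CPM minimum for testing in mutants only, so that they had to be higher there to be tested by that minimum. In bulk tissue, more cells of a type and more RNA per cell cannot be told apart, and neither can a larger share of macrophages and a smaller share of other cells.

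**Figure D1:**
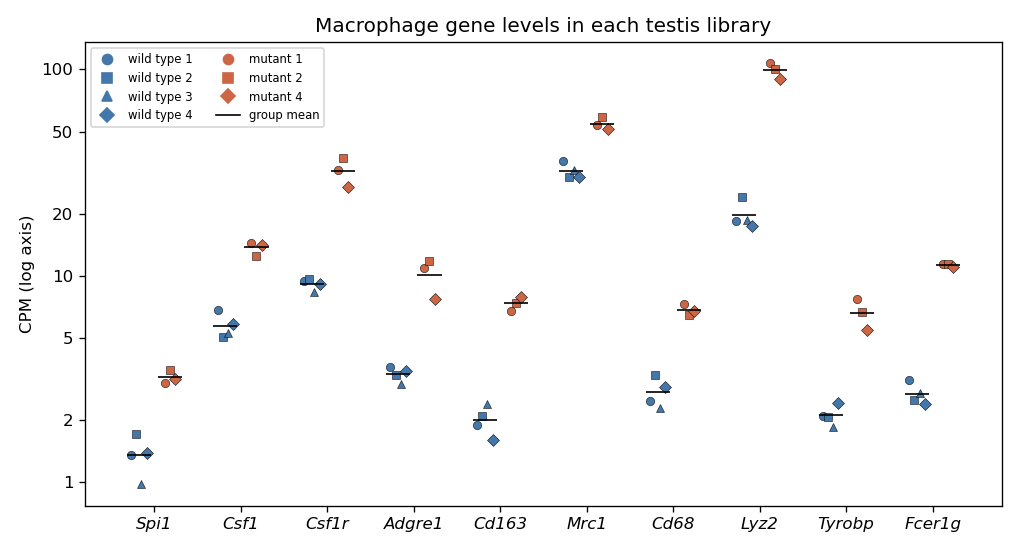
CPM of each macrophage gene (log axis) in the 4 wild-type libraries (blue) and 3 mutant libraries (orange), with the group mean as a line. In all 10 genes the mutant points lie above the wild-type points, with the widest separation for Lyz2 and the narrowest for Mrc1.

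Spi1 (ENSMUSG00000002111, chromosome 2, 90912562 to 90946101 in GRCm39), which encodes PU.1, was at 1.35, 1.72, 0.974 and 1.38 CPM in wild type 1 to 4 and at 3.02, 3.49 and 3.16 CPM in mutants 1, 2 and 4. The groups did not overlap, and the log2 fold change was 1.21 ± 0.19 (SE; FDR 0.000136). Its wild-type libraries had the widest relative spread of the 10, a coefficient of variation of 22.5%.

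Csf1 (ENSMUSG00000014599, chromosome 3, 107648364 to 107667806) encodes the ligand of CSF1R, which stromal and endothelial cells also make. It was at 6.79, 5.07, 5.26 and 5.83 CPM in wild type 1 to 4 and at 14.5, 12.5 and 14.2 CPM in mutants 1, 2 and 4. Its log2 fold change was 1.25 ± 0.11 (SE; FDR 1.08e-06).

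Csf1r (ENSMUSG00000024621, chromosome 18, 61229714 to 61266535), the receptor, was at 9.42, 9.70, 8.37 and 9.08 CPM in the wild types and at 32.7, 37.4 and 26.9 CPM in mutants 1, 2 and 4. The wild-type libraries lay close together and the mutants were spread more widely, with mutant 4 lowest, yet the groups were far apart. The log2 fold change was 1.80 ± 0.10 (SE; FDR 2.51e-08), so that the receptor rose 3.48-fold where its ligand rose 2.38-fold. The ratio of receptor to ligand overlapped between the groups, with a difference of 0.55 on the log2 scale (exact permutation p = 0.0857, adjusted p = 0.154 over 45 pairs). Hmgxb3 overlaps Csf1r on the opposite strand, and its reads could be mixed with those of Csf1r if strand was not used in counting. Hmgxb3 itself had means of 36.8 CPM (wild type) and 45.3 CPM (mutants) and differed by 0.30 ± 0.05 on the log2 scale (SE; FDR 0.000409).

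The surface receptors are Adgre1, Cd163 and Mrc1. Adgre1 (ENSMUSG00000004730, chromosome 17, 57665573 to 57790527) encodes F4/80, the classical marker of mouse tissue macrophages. It was at 3.62, 3.29, 2.98 and 3.46 CPM in wild type 1 to 4 and at 10.9, 11.8 and 7.68 CPM in mutants 1, 2 and 4. Mutant 4 was again the lowest mutant and still lay above each wild-type library. The log2 fold change was 1.55 ± 0.15 (SE; FDR 1.57e-06).

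Cd163 (ENSMUSG00000008845, chromosome 6, 124281606 to 124307560) encodes the scavenger receptor that takes up haemoglobin bound to haptoglobin. It was at 1.88, 2.10, 2.40 and 1.60 CPM in wild type 1 to 4 and at 6.75, 7.36 and 7.92 CPM in mutants 1, 2 and 4. Here mutant 4 was the highest library, the reverse of Adgre1. The log2 fold change was 1.84 ± 0.15 (SE; FDR 4.59e-07).

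Mrc1 (ENSMUSG00000026712, chromosome 2, 14234151 to 14336926) encodes the mannose receptor CD206, which tissue macrophages and some endothelial cells use for endocytosis. It was at 36.1, 30.2, 32.7 and 30.3 CPM in wild type 1 to 4 and at 53.6, 58.6 and 51.5 CPM in mutants 1, 2 and 4. The gap between the highest wild type and the lowest mutant was the smallest of the 10 genes in relative terms. The log2 fold change was 0.76 ± 0.07 (SE; FDR 1.70e-06), and the rise was 1.69-fold.

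Cd68 (ENSMUSG00000018774, chromosome 11, 69555037 to 69557067) encodes a lysosomal membrane glycoprotein of phagocytes. It was at 2.48, 3.29, 2.28 and 2.90 CPM in wild type 1 to 4 and at 7.30, 6.49 and 6.76 CPM in mutants 1, 2 and 4, and its log2 fold change was 1.30 ± 0.14 (SE; FDR 5.50e-06). Eif4a1, a translation initiation factor gene that lies within 1000 bp of Cd68 on the same strand, rose as well, with means of 17.0 and 35.3 CPM (log2 fold change 1.04 ± 0.07, SE; FDR 7.86e-08).

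Lyz2 (ENSMUSG00000069516, chromosome 10, 117111557 to 117118346) encodes lysozyme M, an enzyme that digests bacterial cell walls and is made by macrophages and neutrophils. It was at 18.4, 24.2, 18.7 and 17.4 CPM in wild type 1 to 4 and at 107, 100.4 and 90.2 CPM in mutants 1, 2 and 4. The lowest mutant was far above the highest wild type. The log2 fold change was 2.34 ± 0.10 (SE; FDR 2.46e-09), and the mean rose by 79.5 CPM. Lyz1, a near-identical neighbour of Lyz2, was not analysed here, and how reads shared by both were counted is not given in the sources used here, so the level of Lyz2 is uncertain to that extent.

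The ITAM adaptors rose together with the receptors. Tyrobp (ENSMUSG00000030579, chromosome 7, 30113170 to 30117010), which encodes DAP12, was at 2.09, 2.07, 1.86 and 2.42 CPM in wild type 1 to 4 and at 7.70, 6.67 and 5.47 CPM in mutants 1, 2 and 4. Its log2 fold change was 1.60 ± 0.15 (SE; FDR 1.56e-06). Fcer1g (ENSMUSG00000058715, chromosome 1, 171057141 to 171062219), the common gamma chain of Fc receptors, was at 3.14, 2.50, 2.71 and 2.40 CPM in the wild types and at 11.3, 11.4 and 11.1 CPM in mutants 1, 2 and 4. The 3 mutants were nearly equal for Fcer1g, with a coefficient of variation of 1.59%, the smallest of the 10 genes. Its log2 fold change was 2.03 ± 0.12 (SE; FDR 2.82e-08).

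**Figure D2:**
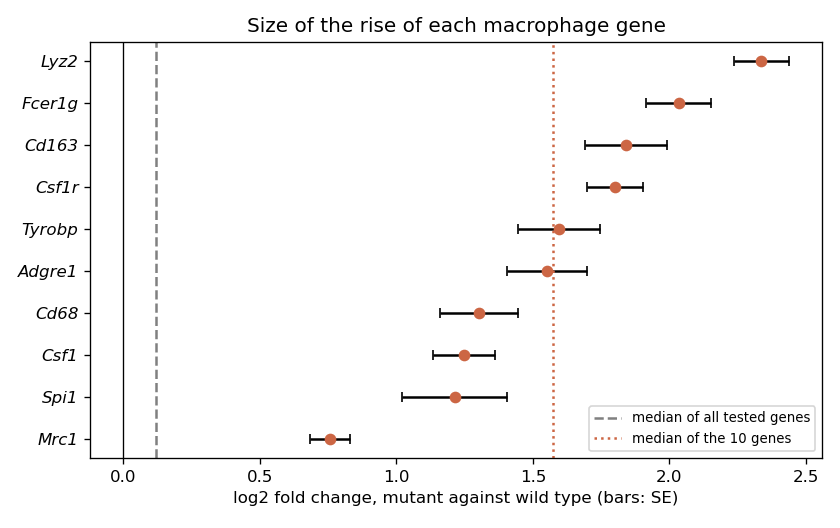
Log2 fold change of each macrophage gene, mutant against wild type, with its SE from limma. All 10 lie to the right of the median of all tested genes (dashed, 0.12), from Mrc1 at 0.76 to Lyz2 at 2.34, and the median of the 10 (dotted) is 1.57.

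Relative to the median gene, the 10 rises ran from 0.64 for Mrc1 to 2.22 for Lyz2 on the log2 scale. Summed over the 10 genes, the libraries held 76.7 to 85.3 CPM in wild type and 225 to 256 CPM in mutants. Mutant 4 had the lowest sum of the 3 mutants, and it was the lowest mutant in 6 of the 10 genes, while mutant 2 was the highest in 5. Among wild-type libraries, wild type 3 was the lowest in 5 of the 10 genes, and wild types 1 and 2 were each the highest in 4. Without mutant 4 the median log2 fold change of the 10 was 1.73.

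Levels of different genes can be set side by side only per length, here as mean CPM per kilobase of all annotated exons of a gene. On that scale Lyz2 was the highest in wild type, at 5.91 CPM per kilobase, followed by Mrc1 at 4.13, Tyrobp at 3.09, Fcer1g at 2.32 and Cd68 at 2.00. Csf1r at 1.24, Csf1 at 0.977, Adgre1 at 0.948, Spi1 at 0.449 and Cd163 at 0.360 CPM per kilobase followed. In mutants Lyz2 was at 29.8 CPM per kilobase, and Fcer1g at 9.72 and Tyrobp at 9.70 had passed Mrc1 at 6.97. Cd68 at 5.002, Csf1r at 4.39, Adgre1 at 2.87, Csf1 at 2.33, Cd163 at 1.32 and Spi1 at 1.07 CPM per kilobase completed the order in mutants. Neighbours in this order that differed by less than the larger of their SDs were Fcer1g and Cd68, Csf1 and Adgre1, and Spi1 and Cd163 in wild type, and Fcer1g and Tyrobp, Cd68 and Csf1r, and Adgre1 and Csf1 in mutants.

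The promoters are shown for the genes that hold the core letters bound by PU.1, because Spi1 rose with the other 9 genes. RefSeq promoter windows (GRCm38.p6, 250 bases before to 50 after the start of the gene) were used here for 6 of the 10 genes, Csf1, Cd68, Cd163, Mrc1, Lyz2 and Fcer1g, and the letters GAGGAA were searched on both strands. They were found in 2 of the 6 windows, those of Cd68 and Mrc1, and in 28.3% of all 32851 promoter windows. Each line gives 30 bases in the direction of the gene, with GAGGAA or its reverse complement TTCCTC in capitals, and the first 2 stretches of Mrc1 overlap.
Cd68, 225 bases before the start, chr11:69666378-69666407, minus strand: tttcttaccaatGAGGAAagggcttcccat
Cd68, 29 bases after the start, chr11:69666124-69666153, minus strand: gaggcttttcatTTCCTCttccaagagaag
Mrc1, 180 bases before the start, chr2:14229222-14229251, plus strand: ctcctacacatgTTCCTCtctccccttcct
Mrc1, 167 bases before the start, chr2:14229235-14229264, plus strand: tcctctctccccTTCCTCctgtgccttagc
Mrc1, 35 bases before the start, chr2:14229367-14229396, plus strand: aaaagggacagcTTCCTCtgtcctcctttt
The genes with these letters, Cd68 and Mrc1, rose 2.47-fold and 1.69-fold, and the 4 genes whose windows do not hold them, Csf1, Cd163, Lyz2 and Fcer1g, rose 2.38-fold to 5.05-fold. A match of letters is a description of the window and not a binding site. Whether PU.1 had a part in any of these rises was not tested.

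If the 10 genes had risen by a single factor, the ratio of any 2 of them would be the same in both groups, whatever the scaling of the libraries. The log2 ratio was therefore taken in each library for all 45 pairs and compared between the groups with an exact two-sided permutation test (4 against 3 libraries). The smallest p that this design allows is 0.0286, and 15 of the 45 pairs reached it. After Benjamini-Hochberg adjustment over the 45 pairs their adjusted p was 0.0857 by the exact permutation test, so that 0 of 45 pairs passed 0.05, while 15 had an unadjusted p below 0.05. With a pseudocount of 1 in place of 0.1, 27 of the 45 pairs passed. But that pseudocount itself lowers the change of low genes more (Spi1 from 1.21 to 0.85, Lyz2 from 2.34 to 2.29). Its ratios with low genes would therefore differ under a common factor too. Mrc1 moved little (0.76 to 0.74), and the largest rise minus the smallest was 1.54 on the log2 scale with that pseudocount. The adjusted test can pass a pair only where at least 26 of the 45 reach the smallest p, so with 4 against 3 libraries its count of 0 does not bear on whether the factor was common. The measured factors were not the same: from the smallest rise to the largest they spread over 1.58 on the log2 scale, and over 1.50 to 1.71 with any single library left out.

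In 23 of the 45 pairs the log2 ratios of the groups did not overlap. For the ratio of every tested gene to each of the 10 genes this share was 91.4%, and 85.5% had an exact p below 0.05. Mrc1 stood at the low end: it rose less, without overlap, in 8 of its 9 pairs. Lyz2 stood at the high end and rose more, without overlap, in 8 of its 9 pairs, and Fcer1g did so in 5. The other 7 genes lay between them.

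Lyz2 and Mrc1 differed most. The log2 ratio of Lyz2 to Mrc1 was -0.72 ± 0.28 (SD, n = 4) in wild type and 0.86 ± 0.12 (SD, n = 3) in mutants, a difference of 1.58, which means that Lyz2 rose 2.99 times as much as Mrc1 (exact permutation p = 0.0286, adjusted p = 0.0857). Fcer1g rose more than Mrc1 by 1.28 on the log2 scale, from -3.54 ± 0.05 (SD, n = 4) to -2.26 ± 0.08 (SD, n = 3). Cd163 and Mrc1, both endocytic receptors of resident macrophages, differed by 1.08, and Csf1r and Mrc1 by 1.04. Lyz2 rose more than Spi1 by 1.12, more than Cd68 by 1.03 and more than Csf1r by 0.54 on the log2 scale. Each of these pairs had the smallest exact permutation p of 0.0286 and an adjusted p of 0.0857. Lyz2 also rose more than Csf1 by 1.09, without overlap, but with an exact permutation p of 0.0571 and an adjusted p of 0.112.

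Other pairs lay close. The log2 ratio changed by less than 0.25 in 11 of the 45 pairs. Csf1 and Spi1 differed by 0.04, Cd163 and Csf1r by 0.04, Tyrobp and Adgre1 by 0.04, and Cd68 and Csf1 by 0.05. The SDs of these 4 log2 ratios within a group ran from 0.06 to 0.37, and their exact permutation p ran from 0.714 to 0.886. Csf1r and Adgre1 are an exception among the close pairs: they differed by 0.25 only, but their ratio had SDs of 0.08 and 0.11 and did not overlap between the groups (exact permutation p = 0.0286, adjusted p = 0.0857). Both were lowest in wild type 3 and in mutant 4 within their groups.

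**Figure D3:**
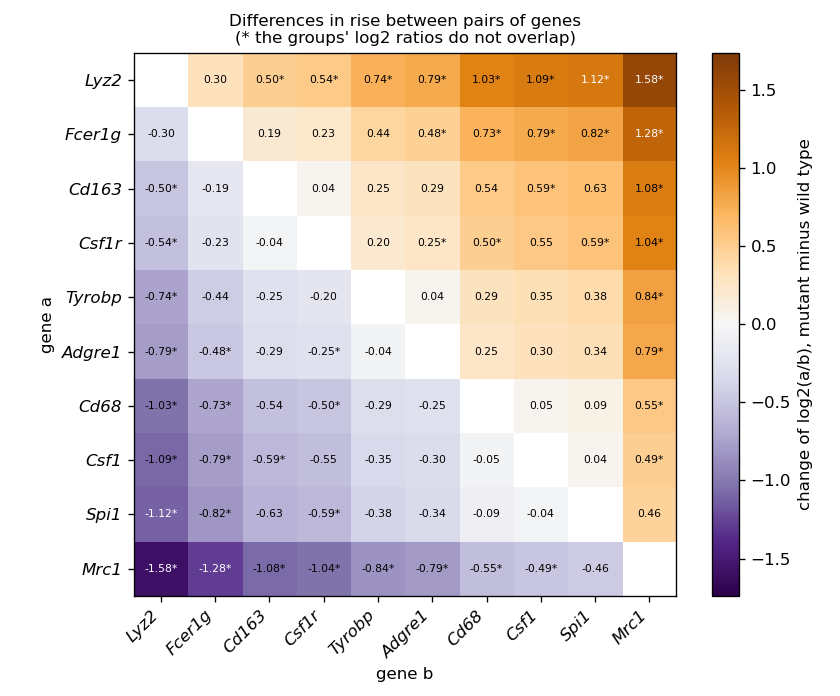
Difference between mutant and wild type in the log2 ratio of gene a (rows) to gene b (columns), with genes in order of their rise, and a star where the log2 ratios of the 2 groups do not overlap. The starred cells gather in the row and column of Mrc1 (8 of 9) and of Lyz2 (8 of 9), and the largest value is 1.58 for Lyz2 over Mrc1.

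A further 26 macrophage genes were tested, of which 21 were called higher and 3 lower, with a median log2 fold change of 1.60. Over all tested genes 36.3% were called higher and 14.2% lower. Of the 26, 9 reached the minimum for testing in mutants only and so had to be higher there. The complement genes C1qa, C1qb and C1qc, which macrophages of many tissues make, rose by 1.94, 1.57 and 1.87 on the log2 scale. Mpeg1, a pore-forming protein of phagocytes, was at 14.9, 15.2, 13.9 and 18.2 CPM in the wild types and at 60.3, 65.9 and 59.9 CPM in mutants, a difference on the log2 scale of 2.00 ± 0.08 (SE; FDR 2.23e-09). Ly86, which encodes the partner of a toll-like receptor relative, had the largest rise of the list at 2.71 ± 0.33 (SE; FDR 1.42e-05), from a wild-type mean of 0.396 CPM, and is among those 9. The 3 genes that were lower were Aif1, Fcgr3 and Msr1. Aif1 encodes IBA1 and had means of 385 and 276 CPM (log2 fold change -0.48 ± 0.04, SE; FDR 1.01e-06). Fcgr3, an Fc receptor that signals through FCER1G, went from 30.3 to 19.7 CPM (log2 fold change -0.61 ± 0.06, SE; FDR 2.54e-06). Msr1, the class A scavenger receptor, had a log2 fold change of -0.42 ± 0.09 (SE; FDR 0.00194). The falls of these 3 genes lay within the range of 11 spermatid genes (-0.76 to -0.20). Which cells the RNA of these 3 genes came from was not tested.

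Of 19 tested genes that act with CSF1R, with the ITAM adaptors or as myeloid transcription factors, 11 were called higher and 0 lower by limma. Over all tested genes 36.3% were called higher and 14.2% lower. In the list 11 genes had an unadjusted p below 0.05 in limma, all of them higher, and the median log2 fold change was 0.60. Of the 19, 5 reached the minimum in mutants only, Cebpb and Runx1 among them. With size factors 1 of the 19 was called lower. Syk, the kinase that binds phosphorylated ITAMs, rose most, from 2.39, 2.33, 2.74 and 1.92 CPM in wild type to 15.1, 13.4 and 11.8 CPM in mutants (log2 fold change 2.47 ± 0.14, SE; FDR 2.02e-08). The transcription factor genes Cebpb, Irf8 and Runx1, which work with PU.1 in myeloid cells, rose by 2.11, 1.703 and 1.70 on the log2 scale. Cebpa, another transcription factor gene of this list, rose by 0.98, and Klf4 was not called. Plcg2, Vav1 and Inpp5d were not called either, with log2 fold changes of -0.07, -0.09 and -0.07. The most abundant genes of this list, Cbl, Klf4 and Pik3cd, were at 167, 153 and 79.3 CPM in wild type and were not called, with log2 fold changes of 0.05, 0.01 and 0.08. Il34, the other ligand of CSF1R, was not analysed here.

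Of 14 genes shared by leukocytes, 11 were called higher and the other 3 were not called, with a median log2 fold change of 1.51, against 36.3% called higher over all tested genes. Of the 14, 6 reached the minimum in mutants only, Ptprc among them. Lcp1, the actin-bundling protein L-plastin, rose most, from 2.17 ± 0.19 CPM (SD, n = 4) to 16.3 ± 2.98 CPM (SD, n = 3), a log2 fold change of 2.84 ± 0.13 (SE; FDR 5.36e-09). Ptprc, which encodes CD45, rose by 1.54 ± 0.25 (SE; FDR 0.000156). Arhgap30 was at 19.7, 5.65, 22.9 and 5.17 CPM in wild type 1 to 4 and at 39.8, 38.3 and 38.9 CPM in mutants, so that its wild-type libraries fell far apart. Nckap1l at 85.2 CPM in wild type and Cd37 at 17.9 CPM were not called.

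MHC class II genes, with which macrophages and dendritic cells present antigen, were called higher in 5 of 6, against 36.3% of all tested genes. Their median log2 fold change was 1.86, and 1 of the 6 reached the minimum in mutants only. H2-Aa was at 6.58, 5.91, 5.11 and 6.71 CPM in the wild types and at 32.5, 36.3 and 24.0 CPM in mutants 1, 2 and 4 (log2 fold change 2.32 ± 0.14, SE; FDR 2.92e-08). The means of Cd74, the invariant chain, were 12.9 and 53.9 CPM, those of H2-Ab1 9.49 and 31.9 CPM and those of H2-Eb1 7.34 and 29.3 CPM, and all 3 were called higher. In H2-Aa, H2-Ab1, H2-Eb1 and Cd74, mutant 4 was the lowest mutant and mutant 2 the highest. Csf1r, Adgre1, Mrc1 and Fcer1g also had this order, but among the mutants H2-DMa was highest and H2-DMb1 lowest in mutant 1.

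Chemokine genes were called higher in 4 of 4, against 36.3% of all tested genes, with a median log2 fold change of 2.45. But 2 of the 4, Ccl8 and Ccl6, reached the minimum in mutants only and so had to be higher there. Ccl8 rose from 1.63 to 14.1 CPM (log2 fold change 3.08 ± 0.24, SE; FDR 2.52e-07), and Cxcl12, which stromal cells make, rose from 12.5 to 56.9 CPM (2.17 ± 0.08, SE; FDR 1.30e-09). Cx3cl1 rose by 0.85 ± 0.15 (SE; FDR 0.00038). Of 5 genes tied to alternative activation, 4 were called higher, against 36.3% of all tested genes. That count was 3 with size factors or a replicate block, and 3 to 4 with a library left out. F13a1, a transglutaminase of resident macrophages, rose most (1.53 ± 0.13, SE; FDR 7.60e-07). Hmox1, which breaks down haem, rose by 0.83, and Gas6 at 73.7 CPM in wild type was not called, with a log2 fold change of 0.05. The 11 genes listed for inflammatory activation were not analysed here.

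Few markers of other blood cells were tested. Plac8, which monocytes express, fell by 0.63 on the log2 scale (FDR 5.92e-05). Mpo, a neutrophil granule enzyme, had a log2 fold change of 0.70 (unadjusted p = 0.024 in limma, FDR 0.0395). Its means were 2.23 CPM in wild type and 3.47 CPM in mutants. Each mutant lay above each wild type for Mpo, as for 42.8% of all tested genes. The summed level of these 2 genes, most of it from Plac8, was 15.2 to 17.7 CPM in wild type and 11.7 to 13.6 CPM in mutants. Neither was called higher. Among 3 tested lymphoid and dendritic cell genes, Cd3d, a subunit of the T cell receptor complex, was called lower (-1.34, FDR 3.06e-07). Zbtb46 and Flt3, which mark dendritic cells and their precursors, were not called, with log2 fold changes of 0.04 and -0.11. The summed level of these 3 genes was 26.0 to 29.6 CPM in wild type and 19.9 to 21.9 CPM in mutants. The other genes of both lists were not analysed here, and which cells gave the RNA of the tested ones was not tested.

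Markers of other testis cells also differed between the groups. The shares over all tested genes were 36.3% called higher and 14.2% lower. Of 9 Leydig cell genes, 8 were called higher, with a median log2 fold change of 1.65 and a summed level of 1168 to 1389 CPM in wild type and 4838 to 4977 CPM in mutants. Insl3, a Leydig cell hormone, rose from 438 to 2941 CPM (log2 fold change 2.75 ± 0.04, SE; FDR 2.02e-13), and Hsd3b1 rose most (3.21 ± 0.16, SE; FDR 7.04e-09). Cyp17a1 and Cyp11a1, enzymes of androgen synthesis, rose by 0.74 and 1.42. Within the Leydig list the log2 fold changes ran from 0.24 to 3.21, and within the 10 macrophage genes from 0.76 to 2.34. Of 10 Sertoli cell genes all 10 were called higher, with a smaller median of 0.84, and their sums were 1632 to 1751 CPM in wild type and 3346 to 3541 CPM in mutants. Clu, Ctsl and Amhr2, the most abundant of these, rose by 1.09, 1.08 and 0.81.

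The counts of peritubular myoid and endothelial genes lay near those of all tested genes, 36.3% called higher and 14.2% lower. Of 7 myoid genes, 3 were called higher and 1 lower, with Smtn at 1.23 and Actg2 at -0.44 on the log2 scale. Of 7 endothelial genes, 3 were called higher and 1 lower, with Kdr at 1.81 and Ptprb at -0.78. The median log2 fold change was 0.28 for the myoid list and 0.63 for the endothelial list, against 0.12 over all tested genes. In the germ line, 5 of 8 spermatogonial genes were called higher (median 0.30), led by Kit at 1.50, but 1 of 8 with size factors and 1 to 4 with a library left out. Of 9 spermatocyte genes, 1 was called higher (Spo11, 0.27) and 1 lower (Ccna1, -0.26), against 0 and 4 with size factors. All 11 spermatid genes were called lower, with a median of -0.58, and their sums were 23714 to 25149 CPM in wild type and 15420 to 17630 CPM in mutants. Prm2, Prm1 and Tnp2, which pack sperm DNA, fell by 0.60, 0.66 and 0.58 on the log2 scale. CPM are shares of a library, so a lower share for spermatid genes goes with a higher share for the rest. With median-of-ratios size factors in place of CPM alone, the median gene stood at -0.01 on the log2 scale and the median of the 10 macrophage genes at 1.44. The part that the spermatid, Leydig or Sertoli levels had in the rise of the macrophage genes was not tested.

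**Figure D4:**
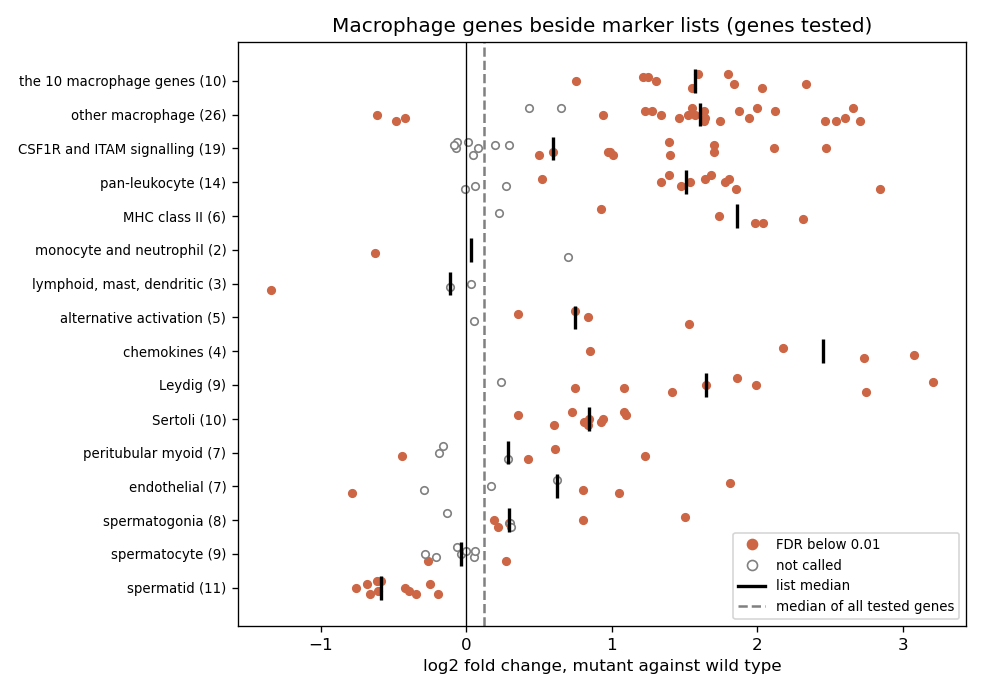
Log2 fold change of each tested gene (points; filled where the FDR was below 0.01) in the 10 macrophage genes and in 15 marker lists, with the list median as a bar and the number of genes tested in brackets. The macrophage, leukocyte, MHC class II, chemokine and Leydig lists have medians from 1.51 to 2.45, Sertoli genes lie at 0.84, and all spermatid genes lie below 0.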

How the data were processed

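RNA was extracted by the authors from testes with TRIzol and treated with DNase, and libraries were made with a TruSeq RNA kit. The authors trimmed reads with Trimmomatic, mapped them with Subread to GRCm39, and counted them per gene with featureCounts. Genes were kept by the authors where 2 or more libraries of a group reached 75 reads. The annotation release and strand setting are not given in the sources used here. The authors deposited CPM, which sum to 1000000 in each library. All values (100%) were whole multiples of the library's smallest step (tolerance 0.01). The reads behind a library (32064384 to 37551057) limit the precision of the lowest genes.

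Tests used limma 3.58.1 in R 4.3.3 (eBayes with a trend) on log2(CPM + 0.1), for genes that reached 2.2 CPM in a minimum of 2 libraries of either group, with Benjamini-Hochberg adjustment and an FDR of 0.01. On simulated libraries the fit called 200 of 200 changed genes and 1 unchanged gene of 16528 tested. Changes were simulated only in genes with a wild-type mean of 5 CPM or more. The simulation therefore did not cover genes as low as Spi1, Cd163, Tyrobp, Fcer1g, Cd68 and Adgre1. It also did not cover a change of as many genes as in these data. Each simulated gene had the same preset spread between libraries beside that of counting, and this spread was not fitted to these data. Ratios of pairs were tested with exact permutation. Exon lengths and coordinates came from GENCODE M39, and 99.5% of genes matched. Named genes are all 10 members, the 3 most abundant genes of each list and its largest called change in each direction. The others (C1qa, C1qb, C1qc, Msr1, Cebpa, Cebpb, Irf8, Runx1, Plcg2, Vav1, Inpp5d, Ptprc, H2-DMa, H2-DMb1, Ccl6 and the neighbouring genes) were named after their values were seen. The members and lists were chosen with earlier results of these data known. By the study, each group was made up of separate mice. The marker lists omit some genes that are not reported here.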

Additional observations from a re-analysis of the deposited data

Results flagged for a closer look

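In the 4 wild-type libraries, 64 of the genes described here (members and marker genes) were examined for a library far from the other 3, and 2 stood apart, where chance gives about 1 in 20. Mpo, a neutrophil granule enzyme gene, had 1.05 CPM in wild type 2 against 2.50 to 2.72 CPM in the other wild types. Cd3d, a T cell receptor subunit gene, had 13.2 CPM in wild type 2 against 11.0 to 11.3 CPM in the others. None of the 10 macrophage genes had such a wild-type library.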

How the results depend on the processing

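Each of the 10 genes kept its direction and its call in all 129 member values recomputed with other pseudocounts, minimums, size factors, a replicate block or with a library left out, the largest FDR being 0.00136 for Spi1. The median log2 fold change of the 10 was 1.31 with a pseudocount of 1 and 1.44 with size factors, and ran from 1.48 to 1.73 with a library left out. The number of pairs past the adjusted exact permutation test was 27 with a pseudocount of 1, which lowers low genes more, and 0 with 0.01; with a library left out the design cannot pass the threshold, and the pairs without overlap numbered 23 to 30. At a minimum of 5 CPM, Spi1 was not tested, and 7 of 14 tested signalling genes were called higher in place of 11 of 19. With size factors, 4627 genes were called higher and 4294 lower over all genes, against 6212 and 2428. Replicate numbers are shared by the groups, but samples with the same number did not deviate together (Pearson's r across genes 0.03, 0.01 and -0.10). The numbers were therefore not taken to pair the samples, though with so few libraries this check cannot exclude a pairing. With the replicate block, in which wild type 3 has no partner and drops out, the 10 genes stayed called, with a median of 1.52 and a spread from smallest to largest of 1.55. The edgeR and DESeq2 alternatives planned for whole reads were not run.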
